A study of Mus musculus with 8 samples.

Results

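T cells carry a set of intracellular proteins that hold back the signal of the T cell receptor once it has engaged antigen. The genes described here encode 10 of them: the phosphatases Ubash3a and Ubash3b, the tyrosine phosphatases Ptpn22 and Ptpn6, the diacylglycerol kinases Dgka and Dgkz, and the ubiquitin ligases Cbl, Cblb, Itch and Rnf128. They were chosen by function, with the results of the comparison below already known, and by signal where a gene had several transcript clusters: the cluster with the highest mean signal was kept. All 10 were found among the 19938 genes of the table. Because the choice was made with this comparison in view, the genotype differences of the 10 genes are a description and not a test.

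The study hybridised RNA of mouse naive CD4 T cells, activated for 24 h with antibodies to CD3 and CD28, to 8 Affymetrix arrays, 1 per sample. Wild-type mice (WT) gave 4 samples, and mice with a conditional Bcl6-/- genotype restricted to T cells (called Bcl6 cKO) gave the other 4. Bcl6 is a transcriptional repressor known for its part in follicular helper T cell differentiation. The sources used here give neither the driver of the deletion, the deleted exons, the age of the mice nor the meaning of the label Tf0. They also do not say whether each sample came from its own mouse. The p-values and errors therefore measure only the spread between these samples, which may be in part technical. Each genotype held arrays with high and with low Y-linked signal, so its samples did not all come from the same mouse. The Bcl6 signal was 8.37 ± 0.20 (log2, SD, n = 4) in WT and 8.74 ± 0.27 (n = 4) in Bcl6 cKO. It was not lower in the arrays labelled knockout, and without knowing which exons its probes read it does not check the labels.

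When the receptor is engaged, Lck and Zap70 phosphorylate adaptors that activate phospholipase C gamma, which releases calcium and makes diacylglycerol. The brakes act at successive steps of this chain. Ubash3a and Ubash3b are the suppressors of T cell receptor signalling. Ubash3b, Ptpn22 and Ptpn6 remove phosphate from proximal kinases such as Zap70 and Lck. Cbl and Cblb attach ubiquitin to phosphorylated signalling proteins, Dgka and Dgkz turn diacylglycerol into phosphatidic acid and so limit Rasgrp1 and protein kinase C theta, and Rnf128 and Itch are ubiquitin ligases linked to T cell anergy.

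The results turn on 3 of the genes, Dgka, Dgkz and Ubash3b, so the 250 bases before the start of each that lies farthest upstream in RefSeq (GRCm38.p6) are shown first, 5′ to 3′ on the gene's strand. Capitals mark a match to TTCCNNGAA, the core that Bcl6 and STAT factors can bind, searched on both strands. RefSeq windows were at hand for 9 of the 10 genes (Itch is named only), 15 windows in all.
Dgka (chr10:128745085-128745334, minus strand): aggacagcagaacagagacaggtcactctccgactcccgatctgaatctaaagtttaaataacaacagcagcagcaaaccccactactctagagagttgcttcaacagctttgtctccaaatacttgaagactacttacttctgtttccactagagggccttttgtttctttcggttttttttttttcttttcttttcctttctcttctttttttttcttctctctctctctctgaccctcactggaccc
Dgkz (chr2:91963564-91963813, minus strand): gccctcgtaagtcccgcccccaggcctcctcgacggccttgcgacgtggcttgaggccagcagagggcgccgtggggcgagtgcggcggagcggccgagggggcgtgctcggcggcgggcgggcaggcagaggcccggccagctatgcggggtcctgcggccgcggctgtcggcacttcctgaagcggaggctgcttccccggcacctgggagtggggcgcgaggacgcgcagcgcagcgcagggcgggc
Ubash3b (chr9:41158063-41158312, minus strand): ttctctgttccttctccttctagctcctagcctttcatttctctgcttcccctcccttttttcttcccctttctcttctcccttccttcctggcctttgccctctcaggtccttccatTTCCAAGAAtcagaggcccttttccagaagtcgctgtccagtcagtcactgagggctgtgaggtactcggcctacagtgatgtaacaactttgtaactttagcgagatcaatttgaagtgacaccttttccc

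The match in the Ubash3b window begins 132 bases before the start. Of the 15 windows of these genes, 2 held the motif, this one and the second window of Ptpn22, against 4.06% of all 32851 windows of the same length. None of the 4 windows of Dgka or the 2 of Dgkz held it. The Egr motif GCGNGGGCG was in the window of Cbl alone (4.7% of all windows), and the AP-1 motif TGANTCA (6.75%) and the Foxo motif GTAAACA (3.17%) were in none of the 15. A match describes letters in a window and not binding.

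The 2 diacylglycerol kinase genes were the only ones of the 10 whose groups did not overlap, and both were lower in Bcl6 cKO. Dgkz, which is abundant in T cells, read 10.92, 10.71, 10.87 and 10.73 (log2) in WT replicates 1 to 4 and 10.64, 10.41, 10.66 and 10.46 in Bcl6 cKO. Every knockout array lay below every WT array. The means were 10.81 ± 0.10 and 10.54 ± 0.13 (SD, n = 4 each), a log2 difference of -0.27 (SE 0.07, 95% confidence interval -0.43 to -0.10), or 1.20-fold lower.

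Dgkz was read by a second, dimmer transcript cluster that did not share this difference. That cluster stood at 8.08 ± 0.14 in WT and 8.14 ± 0.04 in Bcl6 cKO (n = 4 each), a log2 difference of 0.07 with overlapping groups. With the mean of both clusters in place of the brighter one, the log2 difference of Dgkz shrank to -0.10. RefSeq lists 2 starts for Dgkz, and which transcripts each cluster reads was not analysed here.

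Dgka, a kinase that is high in resting T cells, read 13.44, 13.60, 13.60 and 13.65 in WT and 13.43, 13.33, 13.30 and 13.30 in Bcl6 cKO. The groups were separate by 0.01 only, since WT replicate 1 lay at the level of Bcl6 cKO replicate 1, and the other arrays were well apart. The means were 13.57 ± 0.09 and 13.34 ± 0.06 (SD, n = 4 each), a log2 difference of -0.23 (SE 0.06, 95% confidence interval -0.36 to -0.10), or 1.17-fold lower.

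No member passed an adjusted p of 0.05 in limma over all genes. The adjusted p-values of Dgka (0.167) and Dgkz (0.209) were the smallest of the 10, and those of the other genes ran from 0.638 to 0.973. Over all genes 0.221% passed, 21 higher and 23 lower in Bcl6 cKO; after centring each array on its median these were 19 and 13, and after quantile normalization 22 and 14. At an unadjusted p under 0.05 there were 2 members of 10, both lower, against 10.9% of all genes in either direction and 6.17% lower. Groups were separate with Bcl6 cKO lower for 2 of the 10 and for 3.64% of all genes. These shares are printed as background, and nothing is read from them, since the 10 genes were picked with this comparison known. A total of 8 of the 10 genes lay below WT, with a median log2 difference of -0.05, against 47.9% of all genes and a median of 0.0025.

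**Figure D1:**
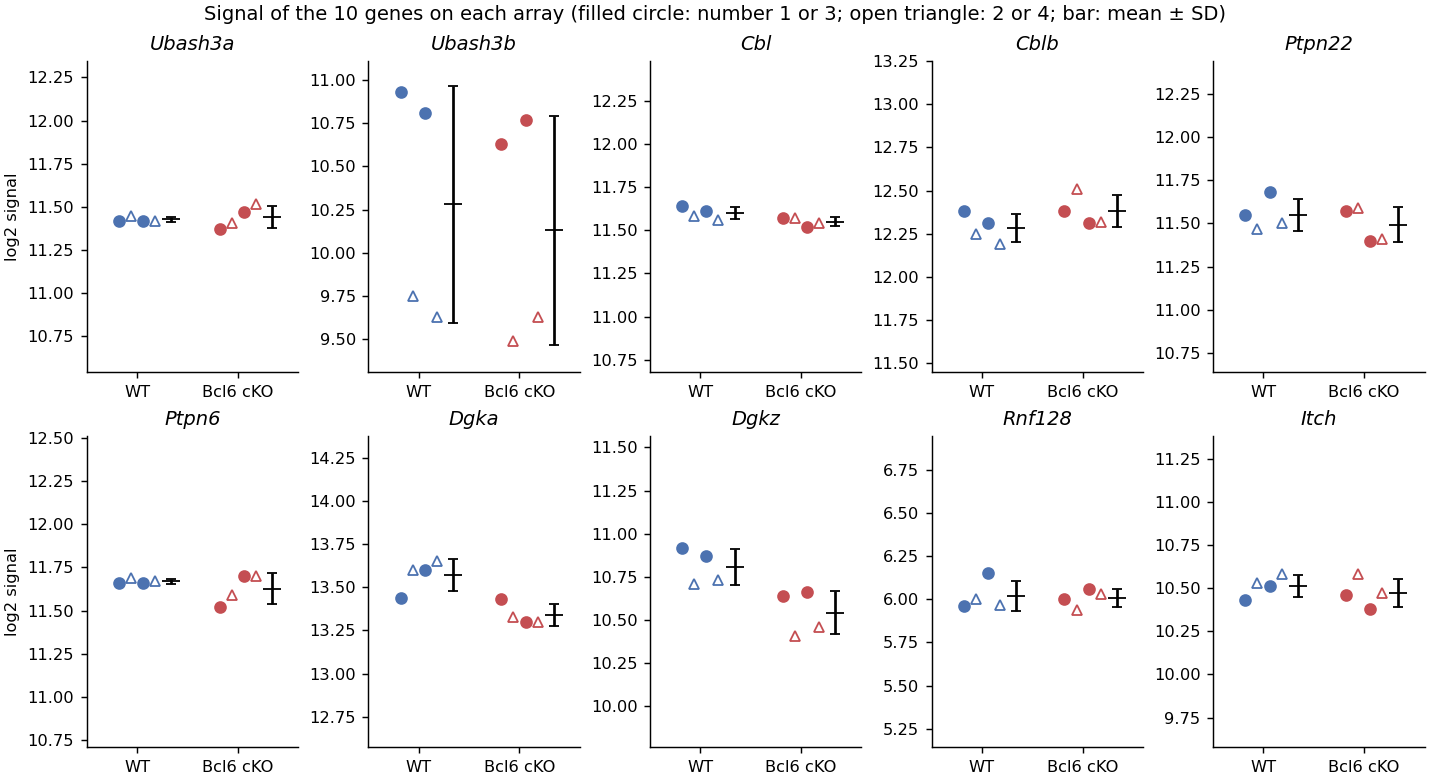
Log2 signal (vertical axis, 1.8 log2 units in every panel) of the 10 genes on each of the 4 WT and 4 Bcl6 cKO arrays, with the mean ± SD of each group (n = 4). The groups of Dgka and Dgkz do not overlap, and the arrays of Ubash3b fall into a high set (numbers 1 and 3) and a low set (numbers 2 and 4) in both genotypes.

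Ubash3b showed the widest spread of the 10 genes, and it followed the replicate number rather than the genotype. It read 10.93 and 10.81 in WT replicates 1 and 3 and 9.75 and 9.63 in WT replicates 2 and 4. In Bcl6 cKO it read 10.63 and 10.77 in replicates 1 and 3 and 9.49 and 9.63 in replicates 2 and 4. The 4 odd-numbered arrays (10.63 to 10.93) thus lay above the 4 even-numbered ones (9.49 to 9.75) in both genotypes, by 1.16 on the log2 scale or 2.23-fold. The labels give the replicate numbers no meaning, so whether odd and even numbers stand for a batch is not known.

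The group means of Ubash3b, 10.28 ± 0.68 in WT and 10.13 ± 0.66 in Bcl6 cKO (SD, n = 4 each), differed by far less than that spread, and the 95% confidence interval of their log2 difference of -0.15 ran from -0.95 to 0.65. With odd or even number as a term in the fit the log2 difference was the same and its interval narrowed to -0.29 to -0.01 (limma adjusted p = 0.353 over all genes). Within the odd-numbered arrays it was -0.17 and within the even-numbered ones -0.13. With that term Dgkz passed over all genes (limma adjusted p = 0.047), and Dgka did not (adjusted p = 0.136). The term was added with the data known. With sex beside it Dgkz did not pass (limma adjusted p = 0.228). Adjusted p-values of Dgkz under the other settings ran up to 0.53.

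The high and low arrays of Ubash3b overlapped with sex in part. Y-linked genes were high on 3 WT arrays and 1 Bcl6 cKO array and low on 1 WT array and 3 Bcl6 cKO arrays, so sex and genotype were unequally mixed. Of the 4 high arrays of Ubash3b, 3 were high for Y-linked genes, and of its 4 low arrays, 3 were low for them. The exceptions were Bcl6 cKO replicate 3, low for Y-linked genes and high for Ubash3b, and WT replicate 2, high for Y-linked genes and low for Ubash3b. With sex as a term the log2 difference of Ubash3b turned from -0.15 to 0.23, and with both terms in the fit it was -0.155 (limma adjusted p = 0.878 and 0.602).

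Few genes split by number by as much as Ubash3b did. Over all genes the odd and even arrays did not overlap for 4.15%, and for 0.0802% (16 genes) they also differed by at least 1 on the log2 scale. Of these 16 genes, 5 were higher on odd-numbered arrays: Ubash3b, the immediate early nuclear receptor gene Nr4a2 (3.84-fold), the activation-induced receptor gene Crtam (2.25-fold), the activity-regulated transcription factor gene Npas4 (2.15-fold) and Dusp6, a phosphatase that switches off the MAP kinase ERK (2.10-fold). The other 11 were higher on even-numbered arrays by 2.10-fold to 4.18-fold. They were Gm4951 (4.18-fold), the interferon-inducible GTPase genes Iigp1 (3.65-fold), Gbp11 (2.50-fold), Gbp3 (2.41-fold) and Gbp8 (2.11-fold), the antigen presentation gene H2-DMa (2.37-fold), the chemokine gene Ccl1 (2.37-fold), the chemokine receptor gene Ccr4 (2.16-fold), and Gm12250, BC023105 and an immunoglobulin kappa variable segment. These genes were picked after their values were seen. Splits of any size were more frequent in the pathway lists described below. Of their 142 measured genes outside the 10, 16 were higher on odd-numbered arrays without overlap and 5 on even-numbered ones. Nr4a1 and Cd40lg were among those higher on odd-numbered arrays, by 0.72 and 0.595 on the log2 scale. The lists were chosen with earlier results known, and the cause of the splits was not tested.

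**Figure D2:**
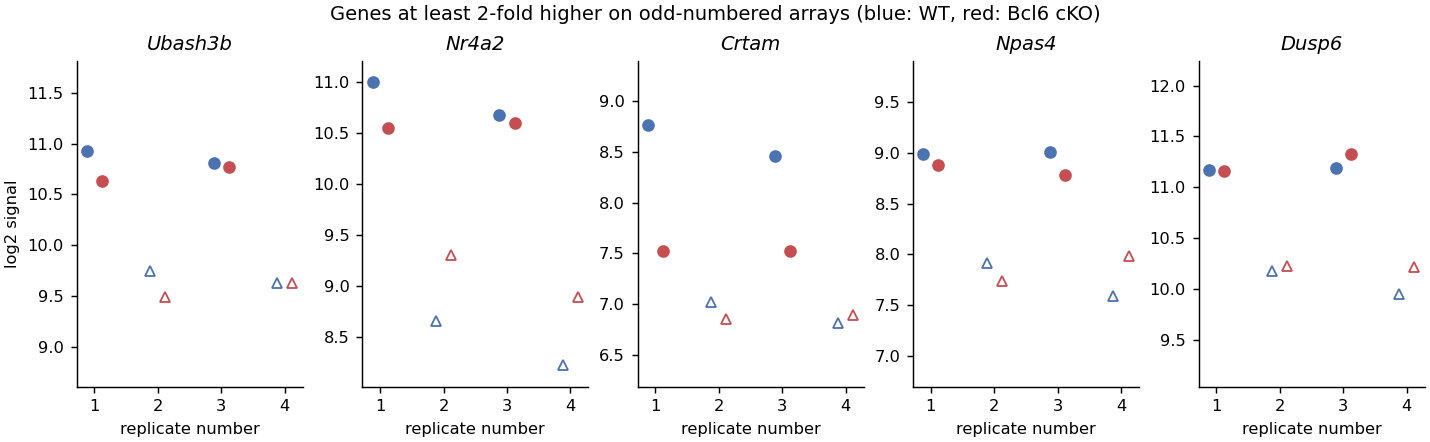
Log2 signal by replicate number of the 5 genes that were at least 1 log2 unit higher on odd-numbered arrays, in WT (blue) and Bcl6 cKO (red); every panel spans 3.2 log2 units. Ubash3b lies between 10.63 and 10.93 on the odd-numbered arrays and between 9.49 and 9.75 on the even-numbered ones, whatever the genotype.

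Ubash3a, the close relative of Ubash3b that is largely restricted to lymphoid cells, had none of this. It read 11.42, 11.45, 11.42 and 11.42 in WT and 11.37, 11.41, 11.47 and 11.52 in Bcl6 cKO. The groups overlapped around the same level, with a log2 difference of 0.02 (95% confidence interval -0.09 to 0.12). Its odd-numbered arrays differed from the even-numbered ones by -0.03.

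The tyrosine phosphatase genes lay within their spread. Ptpn22, whose product acts with the kinase Csk on Lck and Zap70, read 11.55, 11.47, 11.68 and 11.50 in WT and 11.57, 11.59, 11.40 and 11.41 in Bcl6 cKO. Its arrays overlapped, and the log2 difference was -0.06 (95% confidence interval -0.21 to 0.09). Ptpn6, which encodes an SH2-domain phosphatase recruited to inhibitory receptors, read 11.66, 11.69, 11.66 and 11.67 in WT and 11.52, 11.59, 11.70 and 11.70 in Bcl6 cKO. Bcl6 cKO replicates 1 and 2 were below all WT arrays and replicates 3 and 4 just above them, with a log2 difference of -0.04 (95% confidence interval -0.16 to 0.08).

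Of the ubiquitin ligases, Cblb was the 1 gene with a difference above 0.05 in the direction of Bcl6 cKO. Cblb, whose loss lets T cells respond without CD28 costimulation, read 12.38, 12.25, 12.31 and 12.19 in WT and 12.38, 12.51, 12.31 and 12.32 in Bcl6 cKO. The groups overlapped, with Bcl6 cKO replicate 2 the highest array and WT replicate 4 the lowest. The log2 difference was 0.10 (95% confidence interval -0.04 to 0.24). Its relative Cbl read 11.64, 11.58, 11.61 and 11.56 in WT and 11.57, 11.57, 11.52 and 11.54 in Bcl6 cKO, a log2 difference of -0.05 (95% confidence interval -0.15 to 0.05). The Cbl values were the least spread of the ligases, with SDs of 0.04 and 0.02.

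Itch, a HECT-type ligase known to limit Th2 differentiation through Junb, read 10.43, 10.53, 10.51 and 10.58 in WT and 10.46, 10.58, 10.38 and 10.47 in Bcl6 cKO. Its log2 difference was -0.04 (95% confidence interval -0.17 to 0.09), within overlapping groups. Rnf128, also known as GRAIL, ran from 5.96 to 6.15 in WT and from 5.94 to 6.06 in Bcl6 cKO. On arrays with low Y-linked signal the Y chromosome genes read 4.58 to 5.83, just under these values. Rnf128 was therefore hardly shown to stand above background, and its log2 difference of -0.01 (95% confidence interval -0.14 to 0.11) says little about its RNA.

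**Figure D3:**
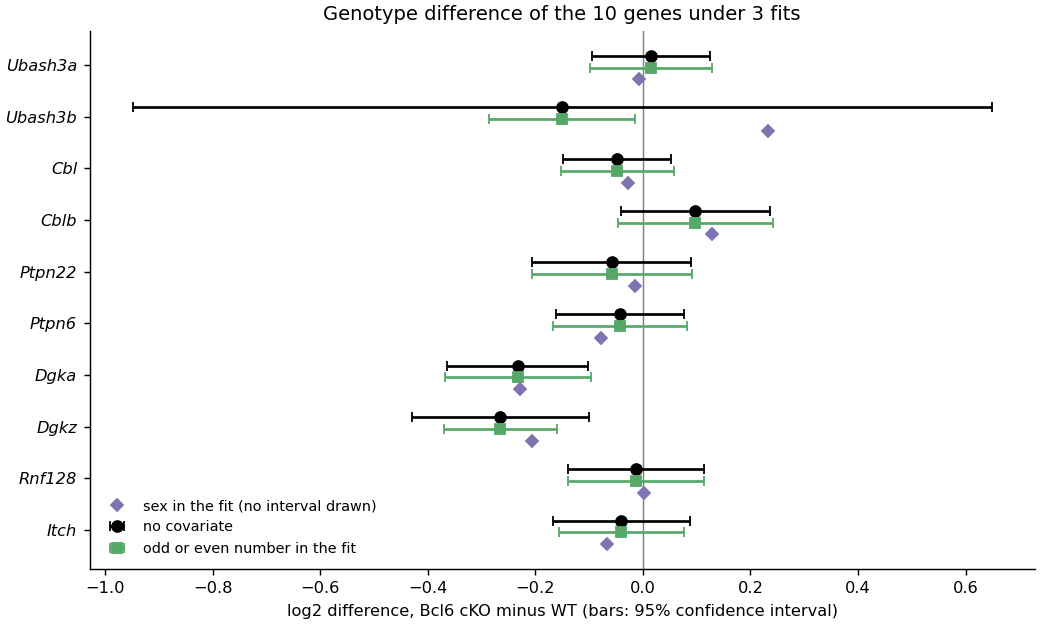
Log2 difference (Bcl6 cKO minus WT, horizontal axis) of each of the 10 genes with its 95% confidence interval, without a covariate (black) and with odd or even replicate number in the fit (green), and the value with sex in the fit (purple). Dgka and Dgkz lie below 0 in all 3 fits, the interval of Ubash3b narrows from -0.95 to 0.65 to -0.29 to -0.01 with the number in the fit, and the others lie near 0.

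Sex and single arrays moved the values of the 2 kinase genes without turning them. With sex as a term the log2 differences of Dgka and Dgkz were -0.23 and -0.21 (limma adjusted p = 0.361 and 0.438). Among the Y-high arrays (3 WT, 1 Bcl6 cKO) they were -0.12 and -0.19, and among the Y-low ones (1 WT, 3 Bcl6 cKO) -0.34 and -0.22. Leaving out each array in turn gave -0.28 to -0.21 for Dgka and -0.30 to -0.22 for Dgkz, with adjusted p-values from 0.117 to 0.513, so neither passed.

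Cblb lies on chromosome 16, the chromosome of Bcl6, among genes that did pass. In the gene order of RefSeq GRCm38.p6 it was the tested gene number 194 after Bcl6. Of 648 tested genes on the chromosome 11 passed the threshold over all genes, against 0.221% of the whole table. Of these 11, 9 lay between Bcl6 and Cblb and 1 just after it. The long non-coding RNA gene Dubr, 2 tested genes before Cblb, fell from 8.19 ± 0.17 to 7.66 ± 0.08 (log2, SD, n = 4 each; limma adjusted p = 0.0381). Nfkbiz, an atypical NF-kappaB inhibitor gene 3 tested genes after Cblb, was separate between groups, at 10.25 ± 0.03 and 9.83 ± 0.15 (adjusted p = 0.0536). Alcam, the gene next after Cblb, which encodes an adhesion molecule, had a log2 difference of 0.37 with a wide spread (adjusted p = 0.652). The other 3 of the 6 nearest tested genes differed less than Cblb: 1700116B05Rik, directly before it, had a log2 difference of 0.065, Ccdc54 one of 0 and Zpld1 one of -0.005. The nearest genes thus had differences both larger and smaller than that of Cblb. The other gene whose chromosome bears on the comparison, Rnf128, is on the X chromosome, and its 3 nearest tested genes on each side had log2 differences between -0.08 and 0.00.

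**Figure D4:**
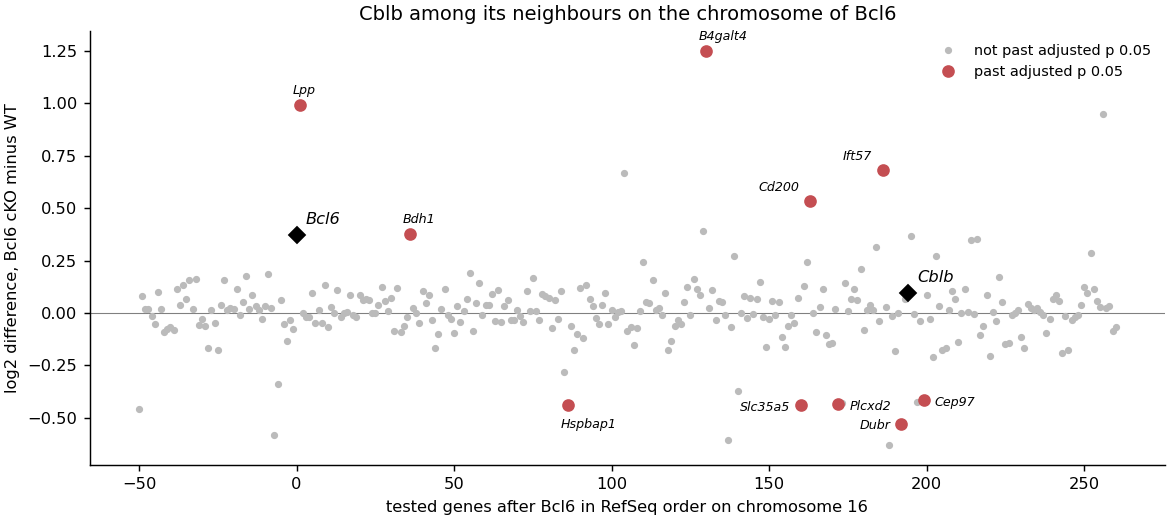
Log2 difference (Bcl6 cKO minus WT) of the genes on chromosome 16 against their place in RefSeq order, counted in tested genes from Bcl6. Cblb, at 194 genes after Bcl6, has a log2 difference of 0.10 among genes that passed an adjusted p of 0.05 (red), such as Ift57 (0.68) and Dubr (-0.53).

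The wider pathway was described with lists drawn from textbook knowledge. Of 29 measured genes of the activating receptor pathway, from the CD3 chains to Orai1, none passed over all genes in limma. At an unadjusted p under 0.05 there were 10, all lower, and 25 of the 29 lay below WT. The median log2 difference was -0.11, against -0.05 for the 10 brakes. Over all genes 6.17% were lower at that p and 47.9% lay below WT. The lists were chosen with earlier results known, so nothing is read from these shares. Txk, a Tec family kinase, was 10.48 ± 0.17 in WT and 9.97 ± 0.14 in Bcl6 cKO (n = 4 each) with separate groups, and missed the threshold (adjusted p = 0.0587). Txk passed with odd or even number as a term (adjusted p = 0.0442) and with trend and robust moderation (0.0297). It also passed among genes above the median signal (0.0478) and without Bcl6 cKO replicate 1 (0.0423). It did not pass with odd or even number and sex together (adjusted p = 0.291), with sex alone (0.219) or with the replicate block (0.0752). The adaptor gene Skap1 had a log2 difference of -0.41 (adjusted p = 0.126), and Plcg1, the phospholipase that makes the diacylglycerol used by Dgka and Dgkz, one of -0.21 (adjusted p = 0.131). On the other side, Malt1 and Lcp2 had log2 differences of 0.10 and 0.09.

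Other brakes of the pathway, 27 measured genes that are not among the 10, gave a mixed picture. None passed over all genes, 4 were lower and 1 higher at an unadjusted p under 0.05, and 17 lay below WT, with a median log2 difference of -0.03. Over all genes 10.9% had such a p in either direction, and 47.9% lay below WT. The adaptor Sla2, which helps Cbl to bring down the receptor, was 9.93 ± 0.07 in WT and 9.68 ± 0.07 in Bcl6 cKO (n = 4 each; adjusted p = 0.116). Itpkb, an inositol trisphosphate kinase, had a log2 difference of -0.26, and the receptor phosphatase Ptprj one of 0.24 (adjusted p = 0.139 and 0.205). Ptpn2, a phosphatase that restrains Lck and cytokine signalling, had a log2 difference of 0.13 with overlapping groups.

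Among the 7 measured diacylglycerol kinase genes 5 lay below WT, Dgka and Dgkz included, against 47.9% of all genes, and none passed. Dgkh had a log2 difference of -0.20 (adjusted p = 0.265) and Dgke, which was higher, one of 0.17 (adjusted p = 0.434). Dgkq and Dgki had log2 differences of -0.11 and 0.02. For the relatives and partners of the ligases and phosphatases nothing passed either: medians were -0.04 for 10 Cbl family and partner genes, -0.02 for 11 Itch relatives and adaptors, -0.03 for 11 Rnf128 relatives and deubiquitinases, and -0.05 for 7 genes around Ptpn22 and Ptpn6. These counts include the 10 genes where they belong to a list. Among Cbl partners, the adaptor genes Crk and Grb2 had log2 differences of -0.14 and -0.10, and Cbll1 and Cblc of 0.06 and 0.04. Among the HECT ligases, Smurf1 and Smurf2 had log2 differences of -0.175 and -0.14, and Nedd4 and Hecw2 of 0.17 and 0.05. Rnf167 and Znrf4 had log2 differences of -0.23 and -0.075, and Rnf149 and Usp8 of 0.14 and 0.035. Ptpn12 and Ptpn18 had log2 differences of -0.105 and -0.06, and all 7 genes of their list lay below WT. The adjusted p-values of these genes were 0.327 or more.

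Of 14 genes linked to T cell anergy, a list that holds Dgka, Cblb, Itch and Rnf128 too, 2 passed, against 0.221% of all genes. The stress-responsive gene Ndrg1 fell by 0.61 on the log2 scale, from 9.69 ± 0.07 to 9.08 ± 0.06 (n = 4 each; limma adjusted p = 0.00309). Nrp1, a surface receptor, rose by 0.82 (adjusted p = 0.0358), and passed neither with sex as a term, nor with the replicate block, nor without any 1 array other than Bcl6 cKO replicate 1. The transcription factor genes Egr2 and Egr3 had log2 differences of -0.12 and -0.23 and, like Ubash3b, differed by number: the odd-numbered arrays of Egr3 lay at 10.95 to 11.24 and the even-numbered ones at 10.17 to 10.56.

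**Figure D5:**
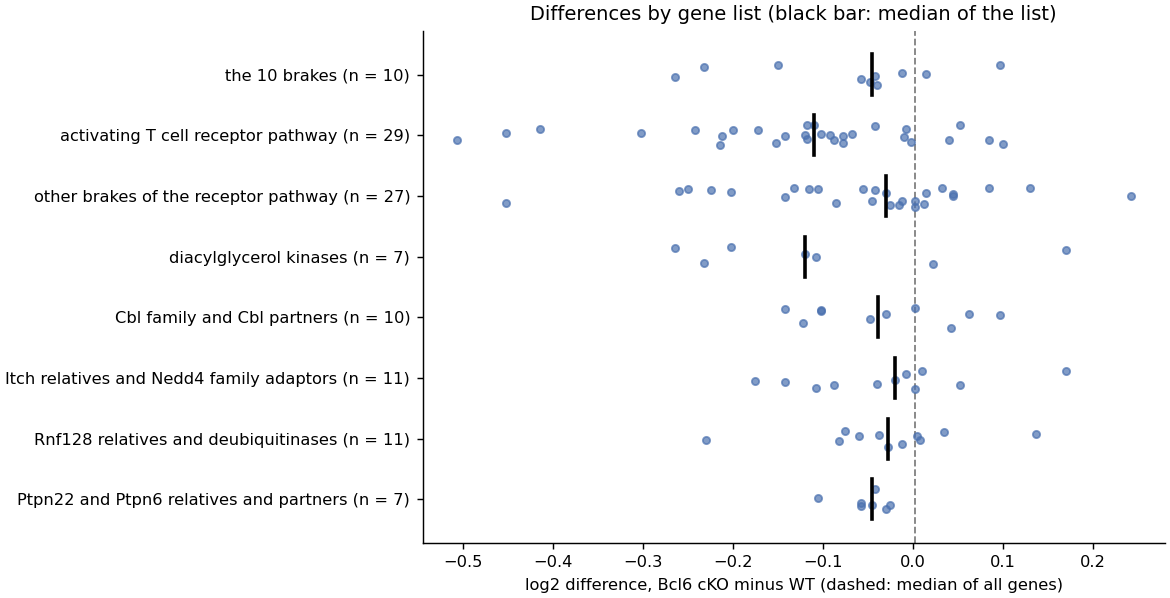
Log2 difference (Bcl6 cKO minus WT) of every measured gene in the list of 10 brakes and in 7 lists of the surrounding pathway, 1 point per gene, with the median of each list. The medians lie between -0.12 for the diacylglycerol kinases and -0.02 for the Itch relatives, against 0.00 for all genes (dashed).

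Levels of activation and resting-state genes are given beside these values. Of 13 measured genes of naive and quiescent T cells 12 lay below WT (median log2 difference -0.15), with Btg2 at -0.49 and Lef1 at -0.23, while Dapl1 was at 0.57. Of 19 proliferation genes 18 lay above (median 0.25), with Top2a at 0.445, Ccne2 at 0.49 and Cdc20 at -0.04. Of 12 activation markers 8 lay above (median 0.11), with Cd44 at 0.815, Il2 at 0.57, Cd69 at -0.13 and Tnfrsf9 at -0.18. None of these genes passed over all genes. An unadjusted p under 0.05 was seen for 6, 5 and 3 of them, against 10.9% of all genes in either direction. Of all genes 47.9% lay below WT. Median differences of the naive list were -0.07 among the Y-high arrays and -0.28 among the Y-low ones, and those of the proliferation list 0.03 and 0.54. Those of the activation markers were -0.015 and 0.155. The part of activation state in the values of Dgka and Dgkz was not tested.

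The arrays carried the markers of T cells, and most markers of other lineages read low, with Cd8b1, Eomes and the regulatory T cell genes above the rest. All 9 T cell genes tested, Cd4 and the CD3 chains among them, read between 10.75 and 13.20. Of the 9, 8 lay below WT (47.9% of all genes did), with a median log2 difference of -0.09. The 8 B cell genes read at most 7.63 and the 11 myeloid genes at most 7.67, with list means per array of 6.14 to 6.21 in WT and 6.13 to 6.26 in Bcl6 cKO for B cells and of 6.08 to 6.28 and 6.13 to 6.24 for myeloid cells. List means per array ran from 6.40 to 6.52 for dendritic cells, 5.21 to 5.51 for natural killer cells (of which Eomes, also expressed in T cells, read 7.55 to 8.90) and 6.50 to 6.64 for erythroid cells. Only 2 of the 6 erythroid markers were measured. Cd8b1 read 10.90 to 11.12 in WT and 10.41 to 10.78 in Bcl6 cKO, with separate groups (log2 difference -0.47, adjusted p = 0.0541), while Cd8a read 6.90 to 7.14 on all arrays. The means of all 5 markers of regulatory T cells lay below WT, as did those of 47.9% of all genes. Log2 differences were -0.50 for Foxp3, -1.20 for Gpr83, -0.245 for Ikzf2, -0.215 for Lrrc32 and -0.065 for Ctla4. Lrrc32 was widely spread in Bcl6 cKO. It read 9.46 and 9.39 in replicates 2 and 4, above all WT arrays (8.64 to 8.93), and 7.52 and 7.89 in replicates 1 and 3, below them. Gpr83 passed with odd or even number as a term (limma adjusted p = 0.00518), with sex beside it (0.0104) and with the replicate block (0.00515). It missed with no covariate (0.0665) and with sex alone (0.142). In bulk samples fewer cells of a type and less RNA per cell cannot be told apart, and the part of these cells in the values of the 10 genes was not tested.

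The genes whose pattern over the 8 arrays was most like those of the 2 kinase genes are given as a description. For Dgkz these were Acap1 (Pearson r = 0.99, Spearman rho = 0.946), Coro1a (r = 0.984) and Stard10 (r = 0.979). For Dgka they were Ctps2 (r = 0.992, rho = 0.982), Sla2 (r = 0.987) and Lrrc8a (r = 0.977). Their log2 differences ran from -0.30 (Ctps2) to -0.175 (Coro1a). Predicted models, small RNAs, receptor segments and similar entries were left out of this search, and the arrays share genotype, sex and replicate number.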

How the data were processed

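The deposited table holds log2 signals, with 1 value for each transcript cluster on each array. RMA and Partek are named in the submitters' processing notes, without version or settings. Per the labels' protocols, RNA input was 100 ng with a biotin label. The platform annotation gave 1 gene symbol to 21789 of 35556 clusters; these name 19938 genes, and the cluster with the highest mean was kept for each. No cluster with several symbols named one of the 10 genes.

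The main test was limma 3.58.1 under R 4.3.3, lmFit then eBayes, on 4 against 4 arrays with no covariate or filter; adjusted p-values follow Benjamini-Hochberg across the whole table, with 0.05 as threshold. The code was tested on simulated data. The 10 genes, the lists and the terms for sex and replicate number were chosen with earlier results of these data known. Named were the 10 genes and, from each list that is not a marker list, the genes past the threshold or, with none, the 2 with the smallest p in each direction. The 3 genes most like Dgka and Dgkz and the nearest 3 on each side of Cblb and Rnf128 were also taken by rule. Plcg1, Egr2, Egr3, the marker genes and the genes that split by number were picked after their values were seen. Sex was read from Y-linked genes. Arrays have no read depth; their number limits precision. Promoter windows are RefSeq's (GRCm38.p6), cut to the 250 bases before the start. Alternatives covered moderation, array weights, scaling, filters, cluster choice, a replicate block, sex, and leaving out each array.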

Additional observations from a re-analysis of the deposited data

Results flagged for a closer look

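In WT the signal of Ubash3a was 11.45 on the array of replicate 2 and 11.42 on each of the other 3 arrays. The gap equals the whole range of the group, which marks it as far from the others, but it is 0.03 on values given to 0.01. The other 3 values tie, so a gap of any size would have been marked. For normally distributed values without ties, about 1 in 20 groups of this size would be marked by chance. The check was run on both groups of each of the 10 genes.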

How the results depend on the processing

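No member passed under the main fit or any alternative except odd or even number as a term, which called 1 (Dgkz); that term and its combination with sex were added with the data known. Over all genes it called 33 higher and 60 lower, and 4 genes of the other lists. Sex as a term called 5 higher, 5 lower and 1 of the lists, and so did sex with odd or even number. Genes called lower numbered 51 with array weights, 61 with trend and robust moderation, 42 and 52 with filters at the 30th percentile and the median, 13 after median centring and 14 after quantile normalization. Each of the 8 arrays moved the counts by over 1.5 times when left out: 5 to 39 genes were higher, 5 to 100 lower, and 1 to 5 of the lists passed; the extremes of 39, 100 and 5 came without Bcl6 cKO replicate 1. Same-numbered samples deviated together with correlations of 0.07 to 0.21 across genes, 1 of them under 0.1. Correlations between different-numbered samples ran from -0.236 to 0.186. These values do not settle whether numbers pair samples, and the main fit did not pair them. The replicate block called 15 higher, 20 lower, no member and 1 of the lists. Dgka, Dgkz, Cbl, Cblb, Ptpn22, Ptpn6 and Itch kept their sign under all 19 alternatives, Ubash3a in 15, Ubash3b in 14 and Rnf128 in 14 of 17. Trend and robust moderation, both filters, the replicate block and the odd or even term alone cannot change a log2 difference, so the signs under them add nothing. The mean of clusters changed that of Dgkz alone among the members. The dimmer Dgkz cluster by itself, with a log2 difference of 0.07, was not among the alternatives. The causes of these changes were not tested.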
